A study of Mus musculus with 5 samples.

Results

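The 10 genes followed here mark platelets and their parent cells, the megakaryocytes, and were read in CD11b+Gr1+ myeloid cells sorted from mouse lung: the chemokine genes Pf4 and Ppbp, the fibrinogen receptor genes Itga2b and Itgb3, the von Willebrand factor receptor genes Gp9 and Gp5, the collagen receptor gene Gp6, the receptor genes Treml1 and Clec1b, and the tubulin gene Tubb1. They were chosen by name, with earlier results of these data known. A gene was read from probe sets whose platform annotation gives it as the sole symbol. Of the 10 genes, 8 were measured, each by 1 probe set, among 14807 genes on the arrays. Gp6 and Tubb1 are not analysed here.

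The tumour-challenged group (2 arrays) came from wild-type mice 9 days after a subcutaneous injection of 5000000 LLC-RFP cells, a Lewis lung carcinoma line that carries a red fluorescent protein. The control group (3 arrays) came from wild-type mice without tumour cells. For both groups lungs were dissociated, about 100000 cells positive for CD11b (an integrin of myeloid cells) and Gr1 (an epitope of granulocytes and inflammatory monocytes) were sorted, and their RNA was amplified before labelling. The labels do not say which arrays came from separate mice or pools, so p-values measure the spread between these arrays, which may be technical. Values are log2 RMA expression values, on which a difference of 1 is a 2-fold difference.

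Platelets carry no nucleus and keep transcripts passed on by megakaryocytes. Their alpha granules store the chemokines encoded by Pf4 and Ppbp, which are released on activation, while their surface receptors bind fibrinogen, von Willebrand factor, collagen and podoplanin. Platelets adhere to activated leukocytes and to circulating tumour cells. Several of these genes are also transcribed outside the lineage: Pf4 and Ppbp in some myeloid cells, Itgb3 in endothelium and macrophages, and Clec1b in some mouse myeloid cells. In RNA of sorted cells, fewer cells of a type and less RNA per cell cannot be told apart.

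Start-site windows of Pf4, Ppbp and Clec1b are shown because these are the members with the largest differences, and because Pf4 and Ppbp varied together over the arrays. Each window runs from 250 bases before the RefSeq start site to 50 after it, in the direction of the gene, on GRCm38.p6. Pf4 lies at chr5:90772185-90772484 and Ppbp at chr5:90768268-90768567, both on the plus strand, and Clec1b at chr6:129397047-129397346 on the plus strand. Capitals mark words searched on both strands: the GATA word AGATAA, its variant ending AGATAG, the form starting TGATAA and the variant of this form TGATAG, which factors of megakaryocytes and red cells bind, the ETS word AGGAAG or its other form CGGAAG, and the promoter word TATAAA.
Pf4: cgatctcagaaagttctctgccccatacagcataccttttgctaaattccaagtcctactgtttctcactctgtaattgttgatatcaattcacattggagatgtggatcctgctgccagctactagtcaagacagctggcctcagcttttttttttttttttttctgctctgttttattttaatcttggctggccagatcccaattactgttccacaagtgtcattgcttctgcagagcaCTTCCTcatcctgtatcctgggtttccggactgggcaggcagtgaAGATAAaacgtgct
Ppbp: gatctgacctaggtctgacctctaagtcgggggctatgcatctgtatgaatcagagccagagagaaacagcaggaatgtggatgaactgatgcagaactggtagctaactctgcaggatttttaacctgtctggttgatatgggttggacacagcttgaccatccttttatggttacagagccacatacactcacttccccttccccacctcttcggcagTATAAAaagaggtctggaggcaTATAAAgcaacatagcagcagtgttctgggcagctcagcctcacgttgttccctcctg
Clec1b: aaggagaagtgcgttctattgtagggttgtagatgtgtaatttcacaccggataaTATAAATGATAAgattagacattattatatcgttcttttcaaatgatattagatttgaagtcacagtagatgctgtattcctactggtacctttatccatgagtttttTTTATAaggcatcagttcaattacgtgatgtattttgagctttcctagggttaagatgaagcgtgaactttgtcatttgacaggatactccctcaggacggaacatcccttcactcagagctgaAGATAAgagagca

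The windows of these genes held different words. Pf4 had 1 ETS word whose first base lies at -9 and 1 GATA word at 37 from the start site. Ppbp held neither, and had 2 TATA words at -30 and -8. Clec1b had 2 GATA words, at -189 and 38, and 2 TATA words, at -195 and -87, and the words at -195 and -189 touch. Windows were found for 9 of the 10 genes, all but Itgb3. A GATA word was in 4 of the 9 windows, against 29.8% of all 32851 RefSeq windows of this length. An ETS word was in 5 of 9, against 46.5% of all windows, and a TATA word was in 2 of 9, against 13.6%. These matches are letters in a window and do not show that a factor binds.

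**Figure D1:**
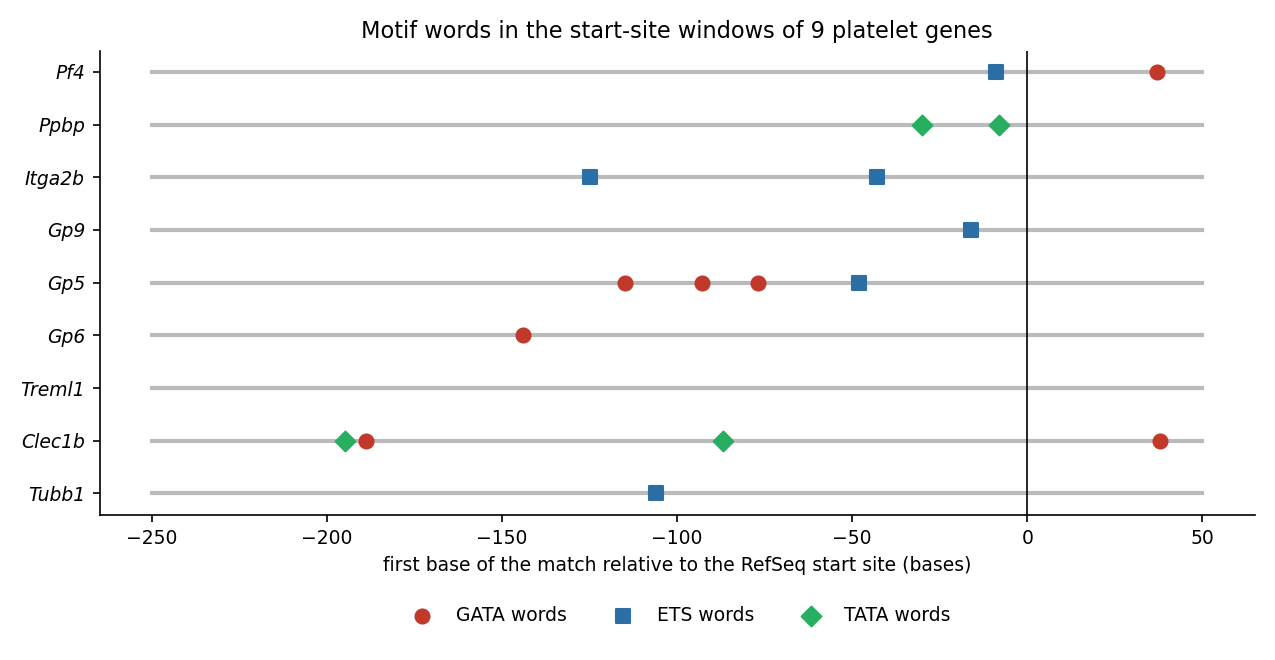
Position of the first base of each motif word (x axis, bases from the RefSeq start site) in the windows of 9 platelet genes (rows). Circles are GATA words, squares ETS words and diamonds TATA words. Gp5 has 3 GATA words and 1 ETS word, Treml1 has none of the words, and the TATA words of Ppbp lie at -30 and -8.

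Both platelet chemokine genes had higher means after tumour challenge, and most of each difference came from tumour-challenged replicate 1. Pf4, platelet factor 4, is a chemokine that binds heparin and related glycans (probe set 6932368). It had 8.63 and 7.17 in tumour-challenged replicates 1 and 2, against 6.76, 7.29 and 6.33 in control replicates 1, 2 and 3. The first tumour-challenged array stood above every control, and the second lay below control replicate 2, so the groups overlap. The mean was 7.90 ± 1.03 (SD, n = 2) in tumour-challenged samples and 6.79 ± 0.48 (SD, n = 3) in controls, a difference of 1.11 ± 0.54 log2 (SE) or 2.15-fold, with a 95% interval from -0.35 to 2.56. Across the 16661 probe sets this was no call (Benjamini-Hochberg adjusted p = 0.810 from limma). The control mean was not above the background level of 6.91, the 95th percentile of the means of 838 probe sets of chemosensory receptors, so the fold is set against a group at background.

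Ppbp, the precursor of the platelet chemokines beta-thromboglobulin and CXCL7 (probe set 6932367), was above background on all 5 arrays. It had 10.09 and 8.98 in tumour-challenged replicates 1 and 2, against 8.62, 8.74 and 8.23 in the controls. Both tumour-challenged arrays lay above every control, the second by less than the range of the controls, which was 0.52. The mean was 9.53 ± 0.79 (SD, n = 2) in tumour-challenged samples and 8.53 ± 0.27 (SD, n = 3) in controls, a difference of 1.00 ± 0.39 log2 (SE) or 2.01-fold, with a 95% interval from -0.04 to 2.04. It did not pass the test either (limma, adjusted p = 0.759). An exact two-sided permutation test of these 5 arrays gave p = 0.2 for Ppbp and p = 0.4 for Pf4. Its p is the smaller tail doubled, and 0.2 is the smallest value that this rule allows for 2 against 3 arrays.

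By the submitters' own rule, group means more than 2-fold up, Pf4 and Ppbp were 2 of the 24 probe sets that were higher, which is 0.144% of all. That call rested on single arrays and on scaling. Without tumour-challenged replicate 1 the difference was 0.38 log2 for Pf4 and 0.45 for Ppbp, and without tumour-challenged replicate 2 it was 1.83 and 1.56. Without control replicate 3 it was 0.87 for Pf4 and 0.85 for Ppbp, below 2-fold. After quantile normalization it was 1.00 and 0.93, with the value for Pf4 just under 1. Of the 8 alternatives that can move a member's difference, Pf4 stayed over 2-fold in 4 and Ppbp in 3, and both kept a positive difference in all 8. These 8 are not all separate. The block by replicate number gives the same differences as leaving out control replicate 3, which has no tumour-challenged partner.

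The gap between the tumour-challenged arrays was wide for both chemokines. Replicate 1 exceeded replicate 2 by 1.46 log2 for Pf4 and by 1.12 for Ppbp, and a gap over 1 log2 in that direction was seen for 67 probe sets, 0.402% of all. Over all genes tumour-challenged replicate 1 also had the highest upper quartile, 8.23, against 7.97 for tumour-challenged replicate 2 and 7.90 to 8.09 in controls. After quantile normalization, which makes the upper quartiles of the arrays equal, the differences were 0.997 for Pf4 and 0.931 for Ppbp. The part of this upper quartile in the result was not tested otherwise.

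**Figure D2:**
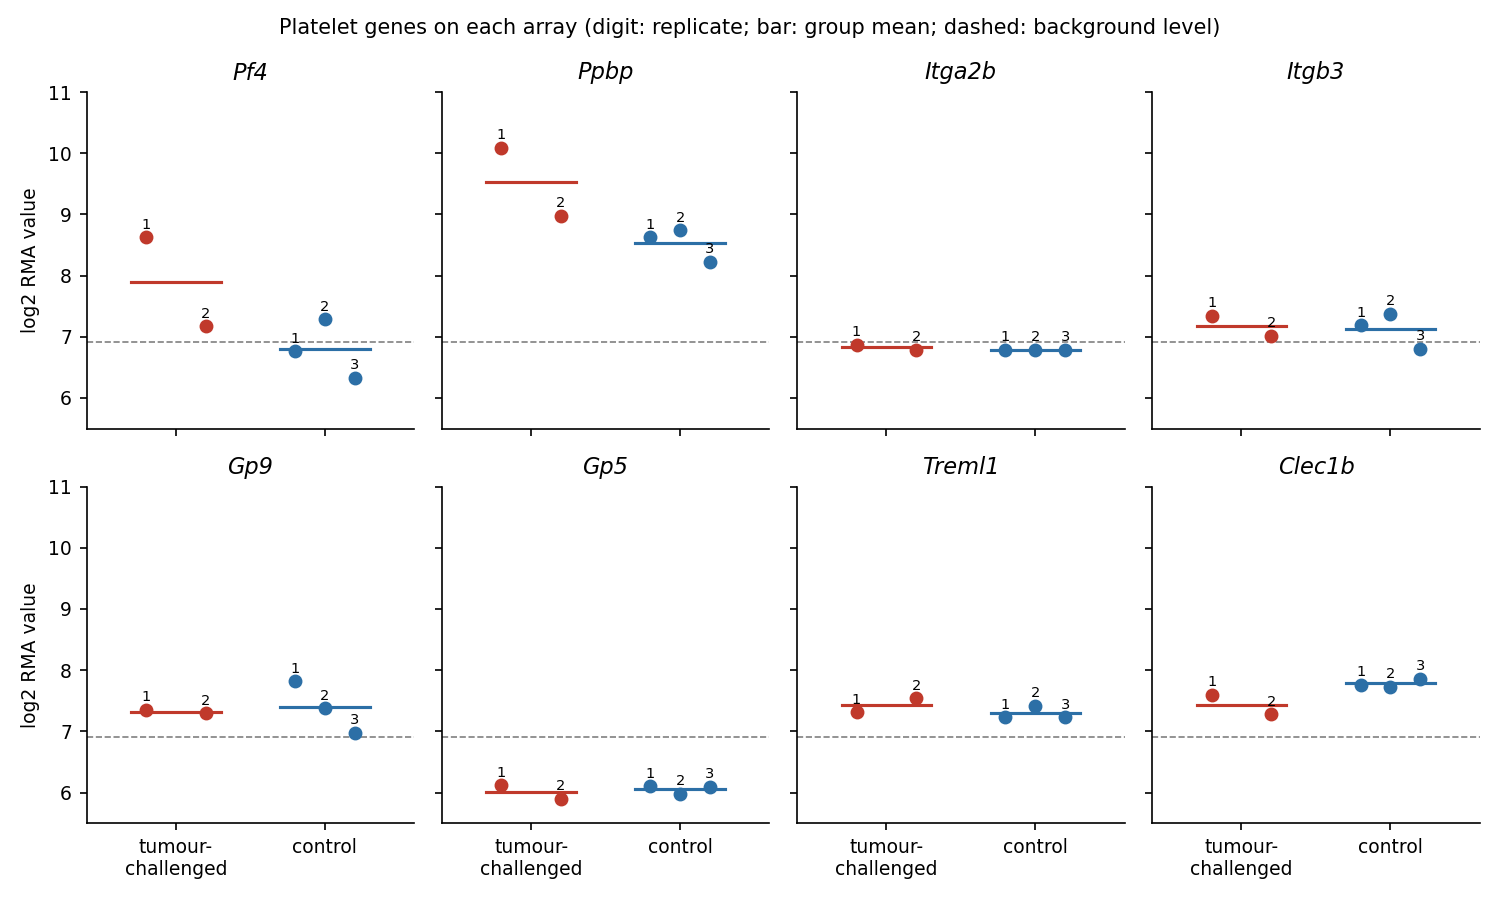
log2 RMA value (y axis) of the 8 measured platelet genes on each array, with tumour-challenged arrays in red and control arrays in blue. Digits are replicate numbers, bars are group means and the dashed line is the background level of 6.91. Tumour-challenged replicate 1 stands apart for Pf4 (8.63) and Ppbp (10.09), and the other genes lie between 5.90 and 7.86 on every array.

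The fibrinogen receptor genes did not follow the chemokines. Itga2b, the alpha chain of the receptor (CD41, probe set 6791570), had 6.87 and 6.79 in tumour-challenged samples, against 6.79, 6.79 and 6.79 in controls. It was not above background on any array, and 3 of its 5 values are exactly equal, a feature it shares with 3259 probe sets (19.6%) that hold equal values on 2 or more arrays. Its difference was 0.04 ± 0.05 log2 (SE, limma adjusted p = 0.901), and -0.001 without tumour-challenged replicate 1. Itgb3, the beta chain (probe set 6784527), had 7.34 and 7.02 in tumour-challenged samples, against 7.19, 7.38 and 6.80 in controls. Its groups overlap, and the difference was 0.06 ± 0.21 (SE, limma adjusted p = 0.971). The sign of this difference turned on leaving out tumour-challenged replicate 1 or control replicate 3, and after quantile normalization. The replicate block, which gives the same difference as leaving out control replicate 3, turned it too.

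The von Willebrand factor receptor, a complex of GPIb, GPIX and GPV, was represented by Gp9 and Gp5. Gp9 (probe set 6947726) had 7.35 and 7.30 in tumour-challenged samples, against 7.82, 7.38 and 6.98 in controls. Its tumour-challenged values lay inside the control range, with a difference of -0.07 ± 0.26 log2 (SE, limma adjusted p = 0.973) that was 0.15 without control replicate 1. Gp5 (probe set 6845028) had 6.12 and 5.90 in tumour-challenged samples, against 6.11, 5.98 and 6.09 in controls. Every array lay below the background level, and its difference was -0.05 ± 0.09 (SE, limma adjusted p = 0.934), or 0.06 without tumour-challenged replicate 2.

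Treml1 encodes TLT-1, a receptor that moves from the alpha granule to the surface of activated platelets (probe set 6850836). It had 7.31 and 7.54 in tumour-challenged samples, against 7.23, 7.42 and 7.23 in controls. Here tumour-challenged replicate 2 was the higher of the pair, unlike for both chemokines, and the groups overlap. The difference was 0.13 ± 0.11 log2 (SE, limma adjusted p = 0.858). Over Itga2b, Itgb3, Gp9, Gp5 and Treml1 the differences ran from -0.07 to 0.13, all 5 had overlapping groups, and the 95% intervals reached from -0.78 (Gp9) to 0.64 (Gp9). The intervals of Gp9 and Itgb3 are wide enough to hold differences of more than 0.5 log2 in either direction.

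Clec1b, which encodes CLEC-2, the platelet receptor of podoplanin, had the largest negative difference of the measured members (probe set 6950147). It had 7.59 and 7.28 in tumour-challenged samples, against 7.77, 7.73 and 7.86 in controls. Both tumour-challenged arrays lay below every control. The mean was 7.44 ± 0.22 (SD, n = 2) in tumour-challenged samples and 7.79 ± 0.06 (SD, n = 3) in controls, a difference of -0.35 ± 0.11 log2 (SE) or 0.785-fold, with a 95% interval from -0.66 to -0.04. It was no call after adjustment (limma adjusted p = 0.720, unadjusted p = 0.035, a side and size of p that 2.96% of all probe sets reached). The difference was negative in all 8 alternatives that can move it, at -0.51 with tumour-challenged replicate 1 left out and -0.19 with tumour-challenged replicate 2 left out. Of 9 measured dendritic and B cell markers 7 had a negative difference in the same samples (median -0.25 log2). The B cell genes Cd79a, Cd79b, Ms4a1 and Pax5 all had lower means, at -0.25, -0.29, -0.81 and -0.70. The groups of Cd79a and Cd79b overlap, and those of Ms4a1 and Pax5 do not. The dendritic genes were mixed: Clec9a differed by -1.17, Xcr1 by -0.18, Zbtb46 by -0.04, Siglech by 0.003 and Flt3 by 1.27. Xcr1 and Zbtb46 had group means not above background. The part of these markers in the difference of Clec1b was not tested.

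Counted together, 5 of the 8 measured genes had a positive difference, against 57.6% of all probe sets, and the median difference was 0.05 log2, against 0.03 over all genes. The groups did not overlap for 1 gene that was higher, Ppbp, and for 1 that was lower, Clec1b. Each is 12.5% of the 8, where 11.2% of all probe sets did not overlap on the higher side and 7.83% on the lower side. At an adjusted p under 0.05 limma called 0 of the 8, 0% of all probe sets higher and 0% lower, and the smallest adjusted p of any probe set was 0.495. At an unadjusted p under 0.05 it called 1 of the 8, Clec1b on the lower side, where 2.96% of all probe sets were called, and 0 of the 8 on the higher side, where 3.58% were. With an intensity trend and robust variances it again called 0 of the 8 after adjustment. The shares of the 8 genes with a positive difference and with separate groups were thus near those of all probe sets. Pf4 and Ppbp made the share over 2-fold higher 25%, against 0.144% of all probe sets. That contrast does not test the list, which was chosen with earlier results of these data known. It rests on 2 neighbouring genes that varied together, at 0.38 and 0.45 log2 without tumour-challenged replicate 1.

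**Figure D3:**
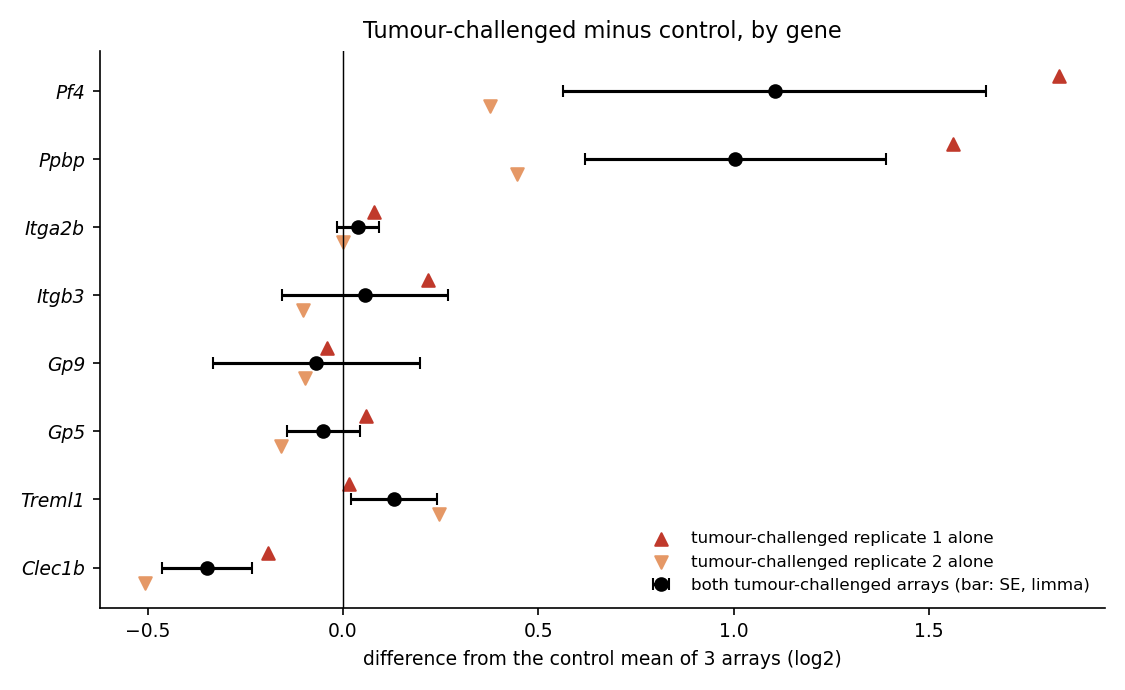
Difference from the control mean of 3 arrays (x axis, log2) for the 8 measured platelet genes (rows). Black points are the difference of group means with its SE from limma, upward triangles tumour-challenged replicate 1 alone and downward triangles tumour-challenged replicate 2 alone. For Pf4 the replicates lie at 1.83 and 0.38, for Ppbp at 1.56 and 0.45, and for Clec1b at -0.19 and -0.51.

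Pf4 and Ppbp are neighbours on chromosome 5, in a cluster of CXC chemokine genes. The 5 nearest measured genes on each side were read as well, a choice made after the values of the pair were seen. Of these 10 neighbours 5 had a positive and 5 a negative difference, from -0.24 to 0.41 log2, and the lowest adjusted p was 0.826 (limma). Cxcl2, a neutrophil attractant that acts through CXCR2, had 11.94 and 11.30 in tumour-challenged samples, against 11.15, 11.47 and 11.51 in controls. Cxcl15, lungkine, a chemokine of lung epithelium, had 8.67 and 8.87 in tumour-challenged samples, against 7.89, 9.07 and 8.13 in controls. These were the 2 neighbours with both group means above background, and the groups of both overlap. Cxcl5 lay near 5 on all arrays, with means of 4.90 in tumour-challenged samples and 4.99 in controls.

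Clec1b lies on chromosome 6 among genes of C-type lectin receptors, read by the same positional choice. Of its 10 neighbours 7 had both group means above background. A negative difference was seen for 9 of the 10, where 57.6% of all probe sets had a positive one. For 3 of the 10 the tumour-challenged arrays lay below every control, against 7.83% of all probe sets. These were Clec9a, a receptor of cross-presenting dendritic cells, Clec1a, and Olr1, a receptor of oxidised lipoprotein. Clec9a had 7.44 and 6.69 in tumour-challenged samples, against 8.11, 8.17 and 8.44 in controls. Clec1a had 7.15 and 6.98 in tumour-challenged samples, against 7.86, 7.87 and 7.81 in controls, and Olr1 had 8.44 and 8.42, against 8.81, 9.01 and 8.89. None of these passed the test (limma adjusted p of 0.620, 0.517 and 0.537).

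**Figure D4:**
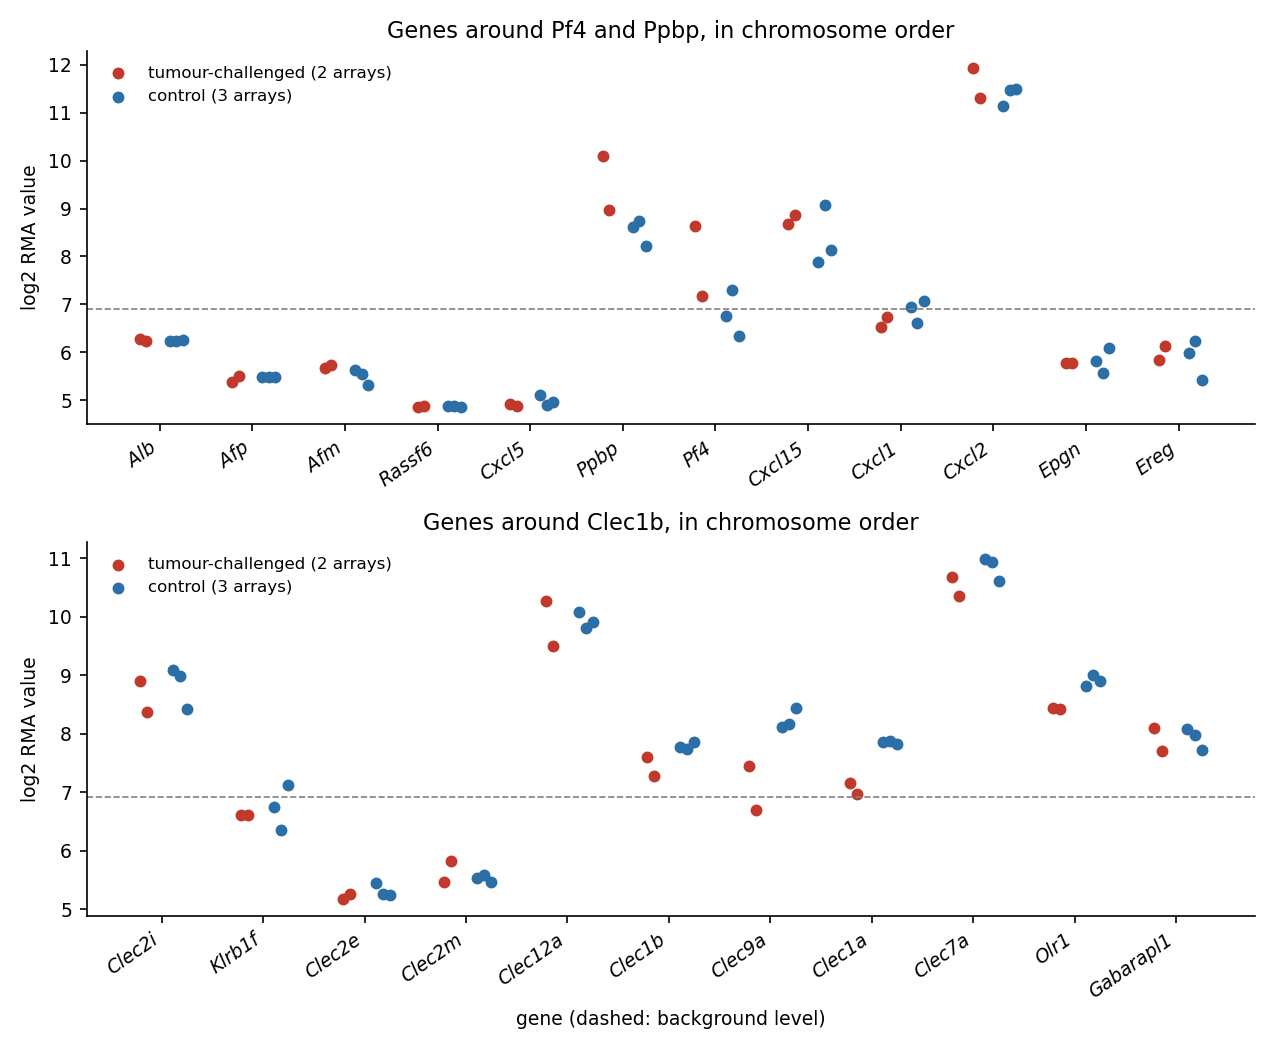
log2 RMA value (y axis) on tumour-challenged arrays (red) and control arrays (blue) of genes in chromosome order (x axis) around Pf4 and Ppbp (top) and around Clec1b (bottom), with the background level of 6.91 dashed. In the top panel the groups part for Ppbp and, below background, for Afm, and in the bottom panel for Clec1b, Clec9a, Clec1a and Olr1.

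Other genes of platelets and megakaryocytes were read as lists, without a test of the list. Of 20 other adhesion and activation receptors 17 were measured. Of these, 9 had a positive and 8 a negative difference, with a median of 0.01 log2. F11r, junctional adhesion molecule A of platelets, epithelium and leukocytes, had 9.16 and 8.64 in tumour-challenged samples, against 7.73, 8.15 and 7.47 in controls, a difference of 1.11 ± 0.27 (SE, limma adjusted p = 0.648). Its groups did not overlap. The ADP receptor gene P2ry1 differed by 0.37 ± 0.105 (SE), the scavenger and thrombospondin receptor gene Cd36 by -0.33 ± 0.09, and the thrombin receptor gene F2rl3, below background on all arrays, by -0.30 ± 0.14. For P2ry1 the groups did not overlap and for Cd36 all tumour-challenged values were lower, but neither passed (limma adjusted p = 0.691 for both). The control mean of P2ry1, 6.83, was not above background.

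Granule and cytoskeletal genes were measured for 15 of 21, with 7 positive and 8 negative differences and a median of -0.09 log2. F13a1, the A chain of coagulation factor XIII, made by monocytes as well as megakaryocytes, had 11.41 and 10.70 in tumour-challenged samples, against 10.62, 10.37 and 9.81 in controls (difference 0.79 ± 0.34, SE). Pdgfb, a platelet growth factor gene, differed by -0.36 ± 0.12 (SE), the G protein gene Gng11 by -0.34 ± 0.29 and the tubulin gene Tuba4a by 0.32 ± 0.16. Other beta-tubulins, read in place of Tubb1, were measured for 5 of 7 with a median of 0.03. Tubb2a differed by -0.61 ± 0.15, Tubb5 by 0.56 ± 0.30, Tubb4a by -0.29 ± 0.16 and Tubb6 by 0.12 ± 0.31 (SE), so they did not share a direction.

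The signalling chain behind the integrin, GPVI and CLEC-2 receptors was measured for 21 of 24 genes, all with 5-array means above background. Of these, 10 had a positive and 11 a negative difference, with a median of -0.02 log2. The median on tumour-challenged replicate 1 was 0.20 above the control mean and on replicate 2 it was 0.23 below (-0.23), so the arrays of this group disagreed. Plek, pleckstrin, a kinase substrate of platelets and leukocytes, had 12.17 and 11.99 in tumour-challenged samples, against 12.40, 12.45 and 12.45 in controls (difference -0.35 ± 0.08, SE, limma adjusted p = 0.620). Fermt3, kindlin-3, which activates integrins, differed by 0.35 ± 0.16, the thromboxane synthase gene Tbxas1 by 0.31 ± 0.17 and the kinase gene Prkcq by -0.30 ± 0.09 (SE), with a tumour-challenged mean of 6.91 that was not above background.

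Megakaryocyte transcription factors were measured for 11 of 12, with 7 positive and 4 negative differences and a median of 0.01 log2. Nfe2, needed for the release of platelets and also active in red cell precursors, had 8.63 and 8.56 in tumour-challenged samples, against 8.17, 8.18 and 7.47 in controls. Its groups did not overlap, and the difference of 0.66 ± 0.26 (SE) did not pass (limma adjusted p = 0.762). Gata1, the master factor of both lineages, was not above background on any array and differed by 0.09 ± 0.12 (SE). Mef2c differed by -0.34 ± 0.14, Ets1 by -0.26 ± 0.13 and Fli1, an ETS factor, by 0.17 ± 0.21 (SE).

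Partners of the members were read in a list of 11 ligands and receptors, 11 of them measured, with 6 positive and 5 negative differences and a median of 0.01 log2. Cxcr2, the neutrophil receptor of the CXCL7 that Ppbp encodes, had 11.82 and 11.60 in tumour-challenged samples, against 11.70, 11.93 and 11.85 in controls. Pdpn, podoplanin, the ligand of CLEC-2, had 7.96 and 7.71 in tumour-challenged samples, against 7.90, 8.20 and 8.06 in controls. The groups overlap for both. Fn1, fibronectin, an integrin ligand, differed by 0.65 ± 0.24 (SE, limma adjusted p = 0.758) with groups that did not overlap, and Cxcr3, a chemokine receptor gene, by 0.19 ± 0.28, with both group means not above background.

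**Figure D5:**
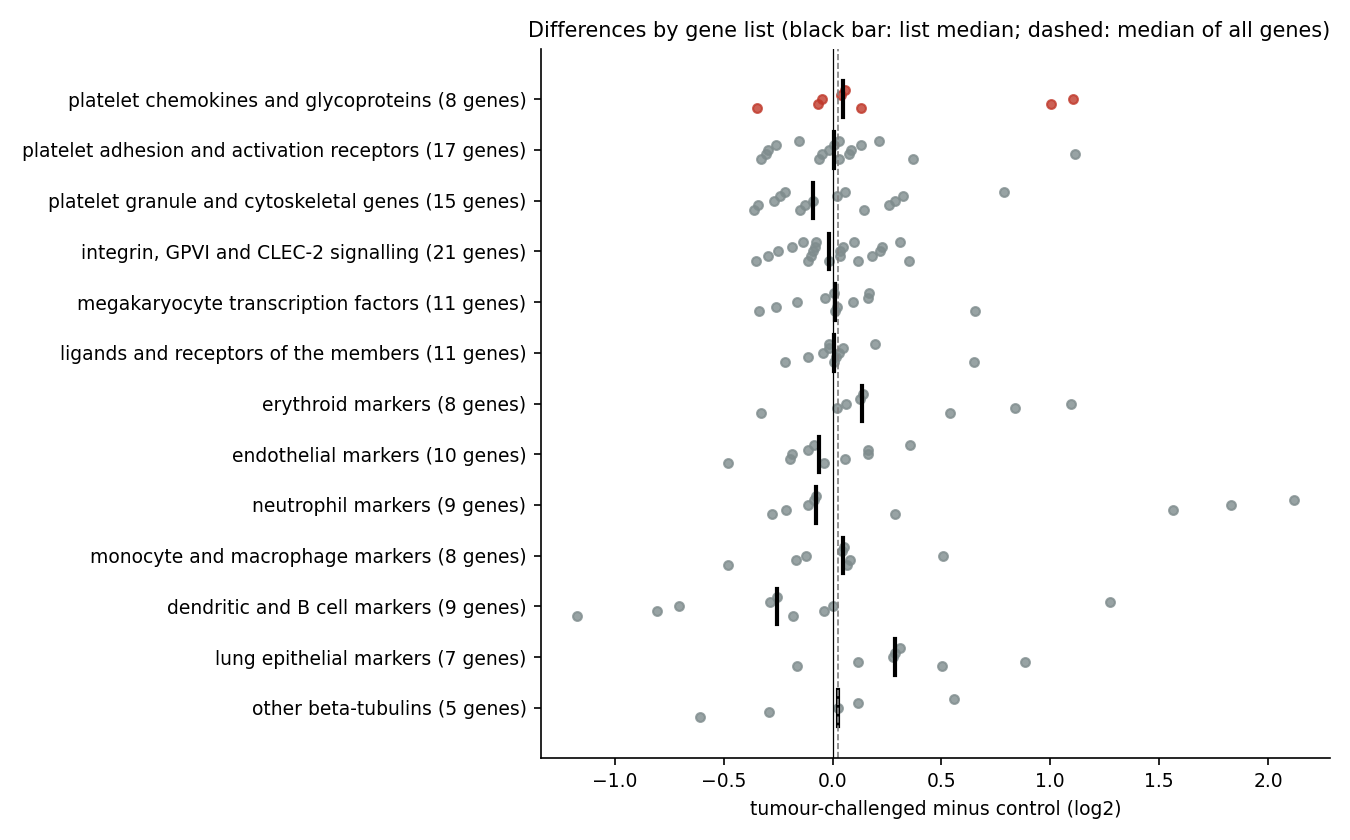
Difference of tumour-challenged minus control means (x axis, log2) for each measured gene of the platelet genes (red) and of the other lists (grey, rows). Black bars are list medians and the dashed line is the median of all genes, 0.03. Among the platelet genes Pf4 and Ppbp stand near 1, and the other 6 lie between -0.35 and 0.13.

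Markers of the sorted cells were read beside these results. These RNA levels do not check the gate, and no gene of the Gr1 epitope was read. Itgam, the gene of CD11b, averaged 10.96 in tumour-challenged samples and 10.77 in controls, and all 9 measured of 10 neutrophil markers had 5-array means above background. Their median difference was -0.08. The tumour-challenged arrays lay above every control for 4 of the 9, against 11.2% of all probe sets. Among these were the granule genes with the largest differences in any list. The other 5 neutrophil markers had negative differences, from -0.28 to -0.08, and overlapping groups. Ngp had 10.48 and 10.23 in tumour-challenged samples, against 8.47, 7.98 and 8.25 in controls (difference 2.12 ± 0.18, SE). Ltf, lactoferrin, had 8.71 and 8.58 in tumour-challenged samples, against 6.94, 6.82 and 6.69 in controls (difference 1.83 ± 0.10, SE). Camp, cathelicidin, had 7.58 and 8.93 in tumour-challenged samples, against 6.72, 6.89 and 6.47 in controls (difference 1.56 ± 0.44, SE). Mmp9, a gelatinase, differed by 0.29 ± 0.18 (SE). The control means of Ltf and Camp were not above background, and no neutrophil marker passed the test (limma adjusted p of 0.517 for Ngp, 0.495 for Ltf, 0.688 for Camp and 0.835 for Mmp9). Tumour-challenged replicate 1 minus replicate 2 was 0.25 log2 for Ngp, 0.14 for Ltf, -0.025 for Mmp9 and -1.35 for Camp. It was 1.46 for Pf4 and 1.12 for Ppbp. The part of these neutrophil genes' shift in the platelet values was not tested.

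Erythroid markers, from the lineage nearest to megakaryocytes, were measured for 8 of 13, with 7 positive differences and a median of 0.13. Their summed linear level was 1348 and 1192 in tumour-challenged samples and 1134 to 1169 in controls, and 2 of the 8 had means above background. Alas2, a haem synthesis enzyme of red cells, had 7.31 and 7.28 in tumour-challenged samples, against 6.57, 6.68 and 6.13 in controls, without the gap between tumour-challenged arrays seen for Pf4 and Ppbp. Car2 differed by 1.09 ± 0.25, Slc4a1 by 0.54 ± 0.11 and Tfrc, the transferrin receptor gene, by -0.33 ± 0.22 (SE). Tfrc had 9.17 and 8.53 in tumour-challenged samples, against 9.22, 9.04 and 9.28 in controls. These were the highest values of the list on every array, so Tfrc weighs most in the summed levels. The control means of Alas2, Car2 and Slc4a1 were not above background, so these 3 differences are set against a group at background.

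The summed linear level of the 8 platelet genes was 2350 and 1447 in tumour-challenged samples and 1179 to 1475 in controls, so the second tumour-challenged array lay within the controls. Lung epithelial markers were measured for 7 of 8, with 6 positive differences, a median of 0.29 and sums of 8437 and 7880 in tumour-challenged samples against 4666 to 9033 in controls. Sftpc averaged 12.24 in tumour-challenged samples and 11.74 in controls, and Scgb1a1 10.76 and 10.48, so these epithelial transcripts were high in both groups. Epcam averaged 6.79 and 6.95. Endothelial markers, which bear on Itgb3, were measured for 10 of 10, with 4 positive differences, a median of -0.06 and sums of 2218 and 2215 in tumour-challenged samples against 2123 to 2462 in controls. Monocyte and macrophage markers were measured for 8 of 9 (median 0.05), with sums of 9791 and 7124 in tumour-challenged samples against 6860 to 9367 in controls. Dendritic and B cell markers were measured for 9 of 10 (median -0.25), with sums of 2190 and 1604 in tumour-challenged samples against 1992 to 2319 in controls. The part of other cells in the platelet values was not tested.

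The genes most like the chemokines over the 5 arrays were sought among 7274 genes above background, by the root mean square distance between values taken from each gene's own mean. Nearest to Pf4 was Ppbp, at 0.20 log2, followed by Flt3 (0.20), a receptor of progenitors and dendritic cells, the neutrophil collagenase Mmp8, F11r (0.31) and Mmgt2 (0.31). Nearest to Ppbp were Mmp8 (0.12), Mmgt2 (0.17), 0610009B22Rik (0.18), Shtn1 (0.18) and Flt3 (0.19). Pf4 stood 6th in that order, and it entered the search only through its tumour-challenged values, since its control mean was not above background. Flt3 had 9.51 and 7.99 in tumour-challenged samples, against 7.53, 7.65 and 7.25 in controls. Mmp8 had 11.83 and 11.06 in tumour-challenged samples, against 10.52, 10.53 and 10.20 in controls, with its groups further apart than those of Ppbp. Of the other 6 measured members 4 were in the search, without Itga2b and Gp5, and none of the 4 was among these nearest genes.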

How the data were processed

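RNA of sorted lung CD11b+Gr1+ cells was measured on 1 array per sample (2 tumour-challenged, 3 control). The deposited values are log2 expression values, made by the authors with RMA (background subtraction, quantile normalization and median polish), per the submitters' processing notes, which also name the build mm8. No RMA version or filter is given in the sources used here. Array medians ran from 6.77 to 6.88, and correlations between arrays from 0.973 to 0.991. The number of arrays limits the precision.

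Of 16661 probe sets 14939 carry 1 gene symbol, 989 several and 733 are unnamed here. Symbols were updated by gene number (14884 matched), and the probe set with the highest mean stood for a gene. Groups were compared with limma 3.58.1 in R 4.3.3 over all probe sets (3 residual and 1.36 prior degrees of freedom), two-sided, with Benjamini-Hochberg adjustment and a threshold of 0.05. The submitters' 2-fold rule was applied as a description, extended here to lower values. On simulated data (20 sets of 16661 probe sets) limma called 53.2% of the genes shifted by 1 log2 and 81.6% of those shifted by 2, with a mean of 7.05 false calls, on spreads drawn from the fitted prior. The simulated noise was independent between genes, without shifts shared by the genes of an array. These rates are therefore not the power on the real arrays, where the smallest adjusted p was 0.495 (limma). Differences are tumour-challenged minus control. A level is called above background if it exceeds the 95th percentile of chemosensory receptor means. Summed linear levels add 2 to the power of each value over a list.

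Named genes were the 10 members, up to 4 genes of each list with the largest absolute difference, and the 5 genes nearest in profile to Pf4 and to Ppbp. Gata1, Itgam, Epcam, the chromosome neighbours and the remaining dendritic and B cell markers were named outside this rule. Members and lists were chosen with earlier results of these data known. Alternatives were median centring, quantile normalization, an intensity trend with robust variances, a filter on the dimmest 25% of probe sets, a replicate block, each array left out, another rule for several probe sets of a gene, and a lower background level. Promoter windows came from RefSeq (GRCm38.p6).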

Additional observations from a re-analysis of the deposited data

How the results depend on the processing

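No member passed an adjusted p of 0.05 in limma under any of the 11 alternatives (3 of which, the intensity trend, the dim filter and the rule for several probe sets, leave a member's difference as it is), and the adjusted p ran from 0.365 to 0.926 for Ppbp, from 0.459 to 0.951 for Pf4 and from 0.334 to 0.900 for Clec1b. Pf4, Ppbp and Treml1 kept a positive difference and Clec1b a negative one throughout. The difference of Itgb3 (0.06) was -0.011 after quantile normalization and -0.103 with the replicate block. With each array left out in turn it lay between -0.103 (without tumour-challenged replicate 1 or control replicate 3) and 0.217. On the same basis Itga2b lay between -0.001 (without tumour-challenged replicate 1) and 0.08, Gp5 between -0.159 and 0.06 (without tumour-challenged replicate 2), and Gp9 between -0.275 and 0.145 (without control replicate 1). Leaving out single arrays moved the members with a positive difference between 3 and 6, those with groups that do not overlap between 2 and 5 (a lone array overlaps less often by construction) and their median between -0.05 and 0.11. It moved the probe sets over 2-fold higher between 17 and 57 and lower between 23 and 75. Centring each array on its median gave 1 call over all probe sets in place of 0. Leaving out single arrays moved the medians of the wider lists between -0.111 and 0.026 for receptors, -0.118 and 0.029 for granule genes and -0.231 and 0.199 for signalling genes, and the replicate block gave -0.11 for receptors. With the lower background level 8 of the 8 members had a 5-array mean above it, in place of 6. The 6 include Pf4, whose control mean of 6.79 was below the main level of 6.91. The cause of these shifts was not tested. The groups share replicate numbers 1 and 2, but the labels do not say that a number marks a shared mouse or day. Deviations from the group means correlated at 0.285 for number 1 and 0.222 for number 2 over probe sets, which are not independent values, since with 2 tumour-challenged arrays each deviation is the other with its sign turned. The block left 0 calls over all probe sets, with 0.87 for Pf4 and 0.85 for Ppbp, both under 2-fold. Its differences are those found without control replicate 3, so the block and that omission count as the same evidence. With 2 tumour-challenged arrays, 95% intervals reached more than 0.5 log2 to each side of the estimate for Pf4, Ppbp, Itgb3 and Gp9.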
